A study of Mus musculus with 14 samples.

Results

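Broad H3K4me3 domains were examined in 6 mouse neurosphere cultures. A domain is a stretch of the genome that H3K4me3 peaks cover over several kilobases, far longer than at most promoters. The H3K4me3 peaks of the 6 cultures on the 19 autosomes were merged where they shared at least 1 bp. A merged region was kept when every culture had a peak in it and when the peaks covered at least 4000 bp, averaged over the 6 cultures. This gave 908 broad domains, 4.15% of the 21864 regions that had a peak in all 6 cultures, out of 41556 regions in all. The other 20956 shared regions, which fell below 4000 bp, are called narrower regions here and serve as the comparison.

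The cultures were grown from the hindbrain of e15.5 embryos and are labelled neural stem cells. All carried Nestin-cre, a Cre recombinase driven by a promoter active in neural progenitors, and, on 1 of their H3f3a alleles, an epitope tag; H3f3a encodes the histone variant H3.3. In 3 cultures the allele was H3f3aLSL-K27M-Tag/+, which gives tagged H3.3 with the K27M substitution (K27M-Tag), and in 3 it was H3f3aLSL-WT-Tag/+, which gives tagged wild-type H3.3 (WT-Tag), the control. LSL marks a stop cassette that Cre removes. WT-Tag replicate 3 is labelled male and the other 5 cultures female. Each culture has 1 list of H3K4me3 peaks and 1 list of peaks for an antibody against FLAG, the tag. No culture without the tag was used here, so the FLAG peaks of an untagged culture are not known. The labels do not say whether the cultures came from separate embryos, and p-values below measure the spread between these cultures only.

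H3K4me3, trimethylation of lysine 4 on histone H3, is written by the SET1 and MLL methyltransferases and marks active and poised promoters, most of them in CpG islands. Most promoters carry a short stretch of the mark around the start site, whereas in many cell types the longest stretches cover genes that define the cell's identity. H3.3 is put into chromatin outside DNA replication, at active promoters and enhancers among other places. The K27M form of H3.3 occurs in diffuse midline gliomas of children, where it inhibits PRC2, the complex that methylates lysine 27 of histone H3. The question here was how the tagged histone lies across the broad domains and whether domains differ in length between the genotypes.

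Domains are given by their position in build mm9, the build of the lists. The annotation at hand was of another build, so genes in or near them, exons and sequences were not analysed here, and the neural stem cell label was not checked against marker genes. The lists held 31932 to 38720 H3K4me3 peaks and 57589 to 88285 (K27M-Tag) or 32763 to 47293 (WT-Tag) FLAG peaks. Read totals were not used here. The background coverage of a list, recovered from its deposited fold and p-values, was 2.77 to 3.5 fragments for H3K4me3 and 3.09 to 3.6 for FLAG, so the lists were of like depth by this measure. Drosophila chromatin was added to the H3K4me3 samples, but the lists carry no factor from it, so no length below is scaled by it. The labels list 1 composite input per genotype, and whether these served as controls for peak calling is not given in the sources used here. If they were, control and genotype cannot be told apart in any comparison of K27M-Tag with WT-Tag, and the spread between cultures leaves out the control's own variation. A longer called peak in bulk chromatin can come from a mark in more cells or from more of the mark per cell, and these cannot be told apart.

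Most domains lay just above the 4000 bp limit, and a few were far longer. Their median length from first to last peak was 5246 bp, with a range of 4162 to 30154 bp. The median of the mean covered length was 4761 bp, against 1370 bp in narrower regions. By mean covered length, 519 domains held 4 to under 5 kb, 192 held 5 to under 6 kb, 126 held 6 to under 8 kb, 38 held 8 to under 10 kb and 33 held 10 kb or more. Together they spanned 5.43 Mb, which is 12.8% of the length of all shared regions. Just inside the limit stood chr13:58227164-58231609 with a mean of 4001.3 bp and chr4:94714878-94719039 with 4003.8 bp, and just outside it chr13:23774501-23778752 and chr15:40485232-40489612, both with 3999.7 bp.

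Domain length varied little between cultures. The coefficient of variation of covered length over the 6 lists had a median of 5.3%, and 28 domains exceeded 20%. All 6 lists reached 4000 bp in 638 domains. The limit was set on the mean over both genotypes, and 781 domains reached it in the mean of each genotype, 121 in the K27M-Tag mean alone and 6 in the WT-Tag mean alone. Taken list by list, 1062, 966 and 1040 shared regions covered 4000 bp or more in the K27M-Tag cultures, and 769, 878 and 802 in the WT-Tag cultures.

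Domains were found on every autosome. Chromosome 11 held the most, with 78, and chromosome 18 the fewest, with 29, and their share of a chromosome's shared regions ran from 2.72% on chromosome 5 to 5.5% on chromosome 3. Domains within 20 kb of each other formed 34 runs with 71 members (7.82%). The longest runs had 3 domains each and stood at chr1:42740682-42771432, chr4:97417573-97452975 and chr13:78319890-78350402. In the run on chromosome 1, H3K4me3 covered 26728, 26191 and 26746 bp in the K27M-Tag cultures and 25421, 25440 and 24405 bp in the WT-Tag cultures.

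The broadest domain, chr13:83852426-83882579, was covered by H3K4me3 over 29221, 29399 and 29007 bp in the K27M-Tag cultures and over 29477, 29895 and 29588 bp in the WT-Tag cultures. All 3 WT-Tag lengths were slightly higher than the K27M-Tag lengths, and the log2 difference in breadth was -0.02 (SE 0.0632, limma adjusted p = 0.818). The rule that chose the domains used these lengths, so p-values of H3K4me3 breadth are given as a description here and below. FLAG peaks in it covered 7804, 4420 and 10667 bp in the K27M-Tag cultures and 436, 1268 and 224 bp in the WT-Tag cultures. Here the FLAG ranges of the genotypes did not overlap, and the log2 difference was 3.33 (SE 0.524, limma adjusted p = 0.00253).

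**Figure D1:**
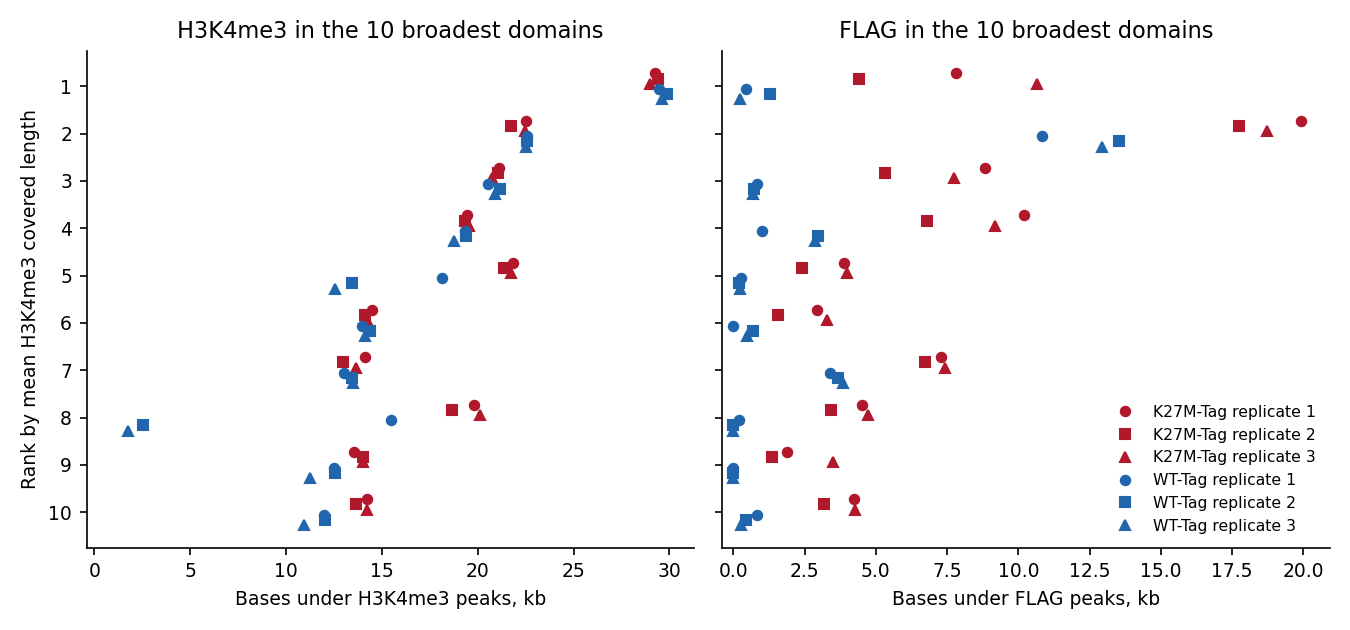
Bases under peaks in kb (horizontal) in the 10 broadest domains, ranked by breadth (vertical), one point per culture, for H3K4me3 (left) and FLAG (right), with K27M-Tag and WT-Tag cultures in separate colours. H3K4me3 lengths of the genotypes lie close together in most of these domains, while the FLAG points of K27M-Tag lie above those of WT-Tag in all 10.

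In the second broadest domain, chr3:88007437-88031113, FLAG lay over much of the length in both genotypes. H3K4me3 covered 22516, 21713 and 22481 bp in the K27M-Tag cultures and 22562, 22562 and 22493 bp in the WT-Tag cultures. FLAG covered 19934, 17757 and 18739 bp (79.4% of the length on average) against 10841, 13522 and 12942 bp (52.5%). It was among 8 domains in which FLAG covered over 50% of the length in WT-Tag. Neighbouring chr11:77973949-77980010 and chr11:77989420-77994387, chosen after their values were seen, were also among those 8. FLAG covered 5278, 4869 and 4983 bp of the first of these in K27M-Tag and 2935, 3237 and 3663 bp in WT-Tag.

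The next 3 domains by breadth carried FLAG to different degrees. In chr4:82139852-82161091, FLAG covered 34.3% of the length in K27M-Tag and 3.48% in WT-Tag. In chr3:34546862-34566440 it covered 44.6% and 11.6%. In chr7:77486936-77509018 it covered 15.6% of the length in K27M-Tag, with 257, 198 and 221 bp in the WT-Tag cultures, and this domain was also longer in K27M-Tag, with 21820, 21353 and 21742 bp of H3K4me3 against 18133, 13422 and 12553 bp. That difference in breadth was 0.58 on the log2 scale (SE 0.131, limma adjusted p = 0.0444), and the H3K4me3 ranges did not overlap.

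Of the remaining 5 of the 10 broadest domains, chr19:55957522-55977800 varied most. H3K4me3 covered 19796, 18664 and 20121 bp in the K27M-Tag cultures, but 15467, 2551 and 1736 bp in the WT-Tag cultures. The K27M-Tag lengths were all higher, yet the spread among the WT-Tag cultures was wide (limma adjusted p = 0.0955). FLAG covered 20.8% of it in K27M-Tag and 0.325% in WT-Tag. The domains chr11:18907006-18921532 and chr15:85498741-85513075 had log2 breadth differences of 0.01 and 0.03, chr14:49280618-49294654 had 0.2 (limma adjusted p = 0.075), and chr6:134869200-134883557 was wider in K27M-Tag by 0.27 (SE 0.0541, limma adjusted p = 0.0345). All 10 of the broadest domains had higher FLAG coverage in K27M-Tag at an adjusted p under 0.05.

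Across all domains, FLAG peaks were near universal in the K27M-Tag cultures and present in somewhat over 50% of domains in the WT-Tag cultures. A FLAG peak lay in 96.0%, 92.6% and 97.5% of domains in the K27M-Tag cultures (95.4% ± 2.49, SD, n = 3) and in 51.8%, 60% and 60.8% in the WT-Tag cultures (57.5% ± 5.01, SD, n = 3). The ranges did not overlap, and the exact permutation test gave p = 0.1, the smallest that 3 cultures against 3 allow (two-sided, 0.108 adjusted over 13 comparisons of the genotypes). In narrower regions the shares were 56.8% ± 6.43 and 23.2% ± 3.76 (SD, n = 3 each). A longer region has more room for a FLAG peak, and these shares are not scaled by length.

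FLAG covered a larger share of domain bases in K27M-Tag than in WT-Tag. In the K27M-Tag cultures 40.3%, 31.3% and 43.2% of domain bases lay under FLAG peaks (38.3% ± 6.22, SD, n = 3), and in the WT-Tag cultures 6.28%, 9.33% and 8.7% (8.1% ± 1.61, SD, n = 3). The lowest K27M-Tag culture was far above the highest WT-Tag culture, the ratio of means was 4.72 and the difference 30.2 percentage points (exact permutation p = 0.1, the smallest possible). A domain held 3.37 ± 0.366 FLAG peaks in K27M-Tag and 1.16 ± 0.116 in WT-Tag (SD, n = 3 each). Of all bases under FLAG peaks on the autosomes, 5.03% ± 0.332 lay in the domains in K27M-Tag and 2.75% ± 0.301 in WT-Tag (SD, n = 3 each).

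The K27M-Tag FLAG lists are longer, and list length moves with these shares. With each FLAG list held to its 32763 highest scoring peaks, the difference in the share of domain bases was 22.8 percentage points and the difference in the share of domains with a peak was 34.5 percentage points, with no overlap of the genotypes in either. The latter difference, 37.8 percentage points over all lists, was 21.8 in domains of 6000 bp or more and 57.9 when at least 500 bp of FLAG were required.

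Tested domain by domain with limma on log2(FLAG bases + 200 bp), 779 of the 898 domains with a FLAG peak in any list were higher in K27M-Tag at an adjusted p under 0.05, which is 86.7%, against 53.2% of all 15202 shared regions with FLAG. No domain was lower by this test, against 0.0395% of all regions, and none was lower at an unadjusted p under 0.05. The median log2 difference was 2.12 in the domains and 1.2 over all regions tested. These log2 values understate the change where FLAG is short, and they measure called length. A longer region can hold more FLAG, so domains and all regions are not compared at equal length. With a mean FLAG of 200 bp or more required, 92.8% of domains and 76.7% of all regions were called. Regions could pass this filter through K27M-Tag alone, where FLAG was longer, so nothing is read from these 2 shares. The medians were 2.91 and 2.06 with 50 bp added, and 1.54 and 0.73 with 500 bp added. With each list centred on its median, which moved the median of all regions to -0.76, 190 domains were higher and 153 lower, so 55.4% of the called domains were higher instead of 100%. Most regions tested had no FLAG peak in a given WT-Tag list, so the WT-Tag medians held the added 200 bp alone, unlike those of K27M-Tag. Centring thus lowered K27M-Tag relative to WT-Tag, and nothing is read from the centred counts. The 10 domains without FLAG in any list were not tested, and 119 were tested and not called.

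FLAG covered more bases in all 3 K27M-Tag cultures than in any WT-Tag culture in 800 of the 908 domains (88.1%), against 41.7% of all shared regions. The ranges lay apart the other way in 0 domains, against 0.0366% of shared regions. The mean was higher in K27M-Tag in 892 domains and lower in 6, and equal in the 10 without FLAG. FLAG was in all 6 lists in 372 domains (41%), against 13.4% of narrower regions. In 178 domains (19.6%, against a near 16.7% of narrower regions) each K27M-Tag culture had a FLAG peak and WT-Tag had none. These 178 entered the limma test only through their K27M-Tag peaks, and all were among the 779 called higher. None of these counts is scaled by length, and a longer region has more room for FLAG. The reverse pattern occurred in 0 domains. Of the 3176 shared regions with FLAG in all 6 lists, 11.7% were broad domains.

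Domains differed widely in how much FLAG they carried. The share of a domain's length under FLAG, averaged over 3 cultures, had a median of 36.3% in K27M-Tag, with 21.0% and 53.4% at the lower and upper quartile. In WT-Tag the median was 3.53% and the upper quartile 10.5%. FLAG covered over 50% of 267 domains in K27M-Tag and of 8 in WT-Tag, and under 10% of 99 and 668. Domains with more FLAG in one genotype tended to have more in the other, with a Spearman rho of 0.677 over the 908 domains, given as a description since domains share libraries and the rule that chose them. FLAG share varied by chromosome from 32% on chromosome 14 to 45.9% on chromosome 17 in K27M-Tag and from 5.58% on chromosome 18 to 14.0% on chromosome 17 in WT-Tag.

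FLAG covered a larger share of domain bases than of narrower region bases within every culture. The difference was 12.9, 10.1 and 13.1 percentage points in the K27M-Tag cultures and 1.73, 2.1 and 1.71 in the WT-Tag cultures. It was above 0 in 6 of 6 cultures, with a mean of 6.95 (two-sided exact sign-flip p = 0.03125, the smallest that 6 cultures allow, 0.0469 adjusted over 6 comparisons within cultures). The difference was larger in the K27M-Tag cultures, 12.1 ± 1.68 against 1.85 ± 0.22 percentage points (SD, n = 3 each, exact permutation p = 0.1, 0.108 adjusted, ranges apart). As ratios of domains to narrower regions the cultures stood closer, at 1.47, 1.48 and 1.44 against 1.38, 1.29 and 1.24.

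**Figure D2:**
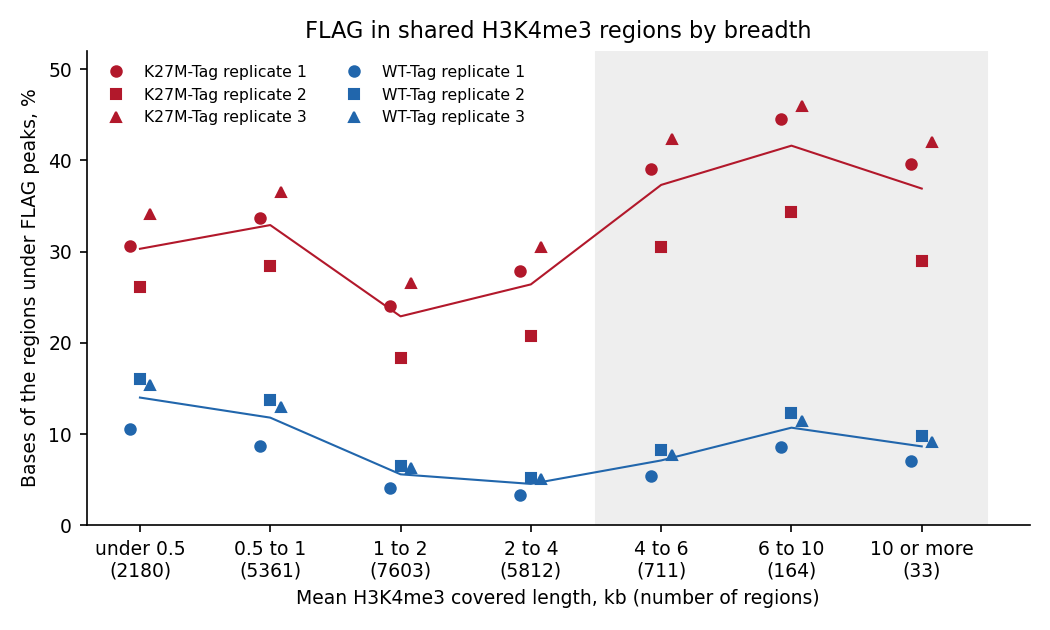
Share of bases under FLAG peaks, in percent, for shared H3K4me3 regions grouped by mean covered length in kb, one point per culture and a line through each genotype's mean. The K27M-Tag points lie above the WT-Tag points at each length, and neither line rises steadily with length: regions of 2 to 4 kb held 26.4% and 4.54%, and regions of 6 to 10 kb held 41.6% and 10.7%.

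The relation of FLAG to breadth was not a steady rise. In WT-Tag, FLAG covered 14.0% of the bases of shared regions under 500 bp, 11.8% from 500 to 1000 bp, 5.59% from 1 to 2 kb and 4.54% from 2 to 4 kb. It then covered 7.11% of domains of 4 to 6 kb, 10.7% of those of 6 to 10 kb and 8.65% of those of 10 kb or more. So the WT-Tag share in domains was above that of regions of 1 to 4 kb and below that of the shortest. In K27M-Tag the shares were 30.3%, 32.9%, 22.9%, 26.4%, 37.3%, 41.6% and 36.9% over the same classes. Among the domains alone, the rank correlation of FLAG share with breadth was 0.102 in K27M-Tag and 0.172 in WT-Tag, as a description.

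FLAG peaks in domains also ranked high within their own lists. The median percentile of the score of the highest FLAG peak of a domain was 88.4, 84.0 and 89.1 in the K27M-Tag cultures and 70.6, 69.5 and 67.2 in the WT-Tag cultures. That was above narrower regions in 6 of 6 cultures, by 17.8, 17.1 and 17.7 percentile points in K27M-Tag against 8.19, 4.58 and 3.29 in WT-Tag (exact sign-flip p = 0.03125, the smallest possible, adjusted 0.0469). These medians are over domains that have a FLAG peak whose summit lies inside them, 838 to 878 in K27M-Tag and 457 to 538 in WT-Tag, and a longer region can hold more peaks from which the highest is taken. At that peak the summit pileup was 8.91 ± 0.738 times the background coverage in K27M-Tag and 6.69 ± 0.0968 times in WT-Tag (SD, n = 3 each, exact permutation p = 0.1).

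FLAG extended beyond the domains. Within 5 kb of a domain, leaving out other H3K4me3 regions, FLAG covered 11%, 7.73% and 11.8% of bases in the K27M-Tag cultures and 3.53%, 5.97% and 5.58% in the WT-Tag cultures. The domain stood above its flanks in 6 of 6 cultures (mean difference 15.6 percentage points, exact sign-flip p = 0.03125, adjusted 0.0469). The ratio of domain to flank was 3.79 ± 0.216 in K27M-Tag and 1.63 ± 0.126 in WT-Tag (SD, n = 3 each). The flanks of narrower regions held 4.63% and 2.15%. The difference between genotypes in the flanks of domains, 5.14 percentage points, was 2.32 with equal list sizes and 8.07 within 2 kb.

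**Figure D3:**
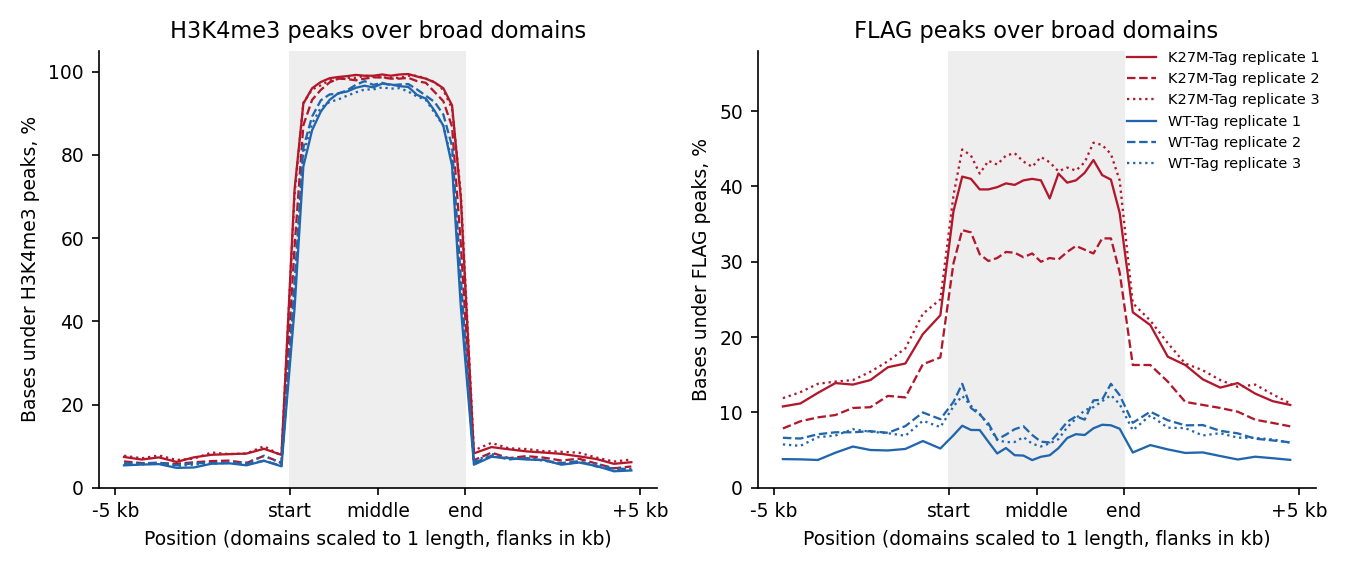
Share of bases under peaks for H3K4me3 (left) and FLAG (right), in percent (vertical axis), from 5 kb before to 5 kb after the domains in bins of 500 bp, and over 20 equal bins inside them, one line per culture. H3K4me3 falls towards the ends of the domain in all cultures, which follows from the rule, since the outermost H3K4me3 peak of any culture sets the ends. FLAG is near level inside the ends of the domain in K27M-Tag and lower in the middle in WT-Tag. Other H3K4me3 regions in the flanks are not left out of these lines.

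Within the domains, the FLAG profile differed in shape between the genotypes. Each domain was divided into its middle 50% and its outer parts. In K27M-Tag, FLAG covered 38.1% of the middle and 38.4% of the outer parts, and the difference in the 3 cultures was 0.174, -0.76 and -0.167 percentage points. In WT-Tag it covered 6.33% of the middle and 9.88% of the outer parts, and the differences were -2.65, -3.83 and -4.17. Over the 6 cultures the middle did not differ from the outer parts by the test (mean -1.9 percentage points, exact sign-flip p = 0.09375, adjusted 0.113). The mean was -0.9 with a limit of 3000 bp and -4.54 with one of 6000 bp. The genotypes' differences did not overlap (exact permutation p = 0.1, adjusted 0.108).

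The same split of narrower regions gave 1.41 ± 0.49 percentage points in K27M-Tag and -0.375 ± 0.203 in WT-Tag (SD, n = 3 each). The middle was thus lower relative to the outer parts in broad domains than in narrower regions in 6 of 6 cultures, by 2.42 percentage points on average (exact sign-flip p = 0.03125, adjusted 0.0469). FLAG summits lay in the middle 50% of their domain in 48.7% ± 0.443 of cases in K27M-Tag and 40.0% ± 1.23 in WT-Tag (SD, n = 3 each).

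FLAG was also compared between the bases of a domain that the culture's own H3K4me3 peaks covered and those they left out. In K27M-Tag, FLAG covered 41.0%, 31.6% and 44.0% of the covered bases and 28.2%, 27.1% and 28.0% of the others. In WT-Tag the values were 6.37%, 9.33% and 8.6% against 5.71%, 9.32% and 9.41%. The K27M-Tag cultures had more FLAG where H3K4me3 was called, while the WT-Tag means lay at 8.1% and 8.15%, and the test over the 6 cultures did not pass (exact sign-flip p = 0.15625, the same when adjusted to 3 digits, 0.156).

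H3K4me3 lengths are given as a description, since the rule used the same lengths. It used their mean over all 6 cultures, so a domain long in 1 genotype alone could enter. H3K4me3 covered 5.16, 5.01 and 5.14 Mb of the domains in the K27M-Tag cultures and 4.73, 4.84 and 4.74 Mb in the WT-Tag cultures, a ratio of 1.07 without overlap. By limma on log2 covered bases, fitted over all shared regions, 103 domains were wider in K27M-Tag (11.3%, against 7.51% of all 21864 shared regions) and 12 narrower (1.32%, against 0.549%). Of the wider domains 44 had reached 4000 bp in the K27M-Tag mean alone, and of the narrower ones 2 in the WT-Tag mean alone, so nothing is read from these shares against the background. In the 781 domains that reached it in both means, 59 were wider and 10 narrower. The median log2 difference was 0.07 in the domains and 0.14 over all shared regions, so most domains changed by a small share of their length. With each list centred on its median, 17 domains were wider (1.87%, against 1.96% of all shared regions) and 31 narrower (3.41%, against 1.13%). Thus 35.4% of called domains were wider, against 89.6% without centring.

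These counts changed when a culture was left out, while the median log2 difference of the domains stayed at 0.06 to 0.08. Such a fit has fewer cultures, so its count of calls does not single out a culture. The 103 wider and 12 narrower domains became 9 (0.991%) and 2 (0.22%) without K27M-Tag replicate 1, against 0.329% and 0.0686% of all shared regions. Without its replicate 2 they were 44 (4.85%) and 4 (0.441%), against 2.76% and 0.238%. Without its replicate 3 they were 14 (1.54%) and 6 (0.661%), against 0.691% and 0.22%. Leaving out WT-Tag replicate 3 gave 36 (3.96%) and 2 (0.22%), against 3.02% and 0.188%. Leaving out WT-Tag replicate 2 gave 120 (13.2%) and 6 (0.661%), against 10.2% and 0.471%. The H3K4me3 ranges of the genotypes lay apart with K27M-Tag higher in 373 domains (41.1%, against 37.8% of shared regions) and with WT-Tag higher in 35 (3.85%, against 2.08%).

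**Figure D4:**
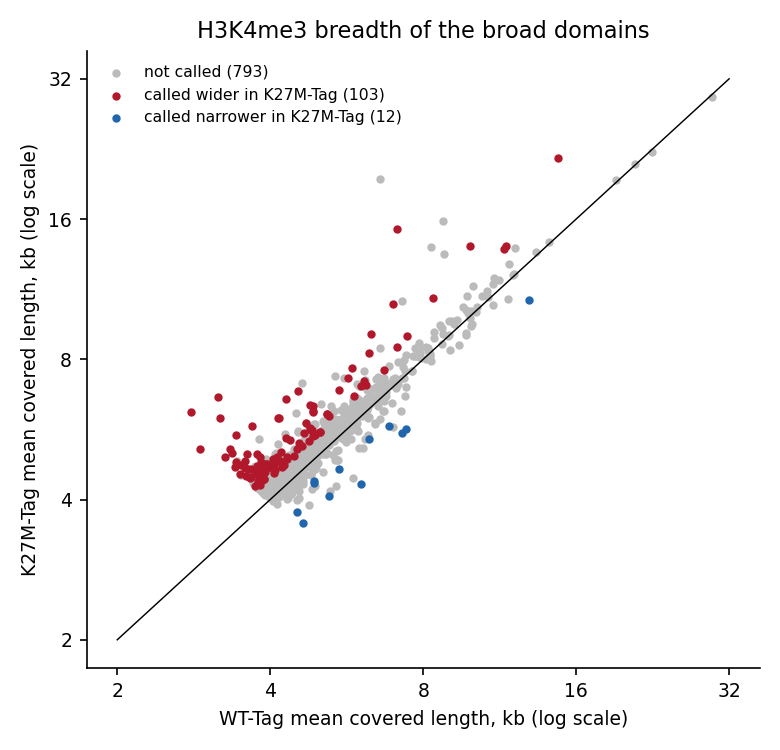
Mean H3K4me3 covered length of each domain in WT-Tag (horizontal) and K27M-Tag (vertical), in kb on log axes, one point per domain, coloured by the limma call. Most points lie near the line of equality, with 103 domains called wider in K27M-Tag above it and 12 called narrower below it.

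Of the 5 called domains with the largest gains in breadth, 4 had a WT-Tag mean below 4000 bp and so entered through the K27M-Tag mean, with chr9:69602194-69617651 as the exception. Their lengths are a description. At chr6:91162356-91168700, H3K4me3 covered 6286, 5923 and 6325 bp in the K27M-Tag cultures and 3294, 2976 and 2120 bp in the WT-Tag cultures, a log2 difference of 1.17 (SE 0.149). FLAG covered 5008, 4364 and 5553 bp of it against 773, 828 and 752 bp. Thus each K27M-Tag culture had H3K4me3 over nearly the whole region and FLAG over most of it. The mark lay in 1, 3 and 1 peaks in the K27M-Tag cultures and in 3 peaks in each WT-Tag culture.

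At chr9:69602194-69617651, H3K4me3 covered 15458, 15299 and 14988 bp in the K27M-Tag cultures and 7753, 7112 and 6406 bp in the WT-Tag cultures (log2 difference 1.11, SE 0.0702, limma adjusted p = 0.0026). The mark formed 1 peak in each K27M-Tag culture and 8, 7 and 7 peaks in the WT-Tag cultures. FLAG covered 7194, 4011 and 7318 bp in K27M-Tag and had no peak in any WT-Tag culture, and this was also the domain with the largest FLAG difference. The fitted FLAG difference against lists at 0 depends on the added 200 bp and is not given as a fold.

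The domain chr8:91560024-91566735 gained breadth with little FLAG. H3K4me3 covered 6661, 6582 and 6712 bp against 4374, 2941 and 2177 bp (log2 difference 1.13). FLAG covered 901, 0 and 579 bp in the K27M-Tag cultures and had no peak in the WT-Tag cultures, and it was not called. The others were chr3:106838343-106844980, with a log2 difference of 0.93 and 46.9% of its length under FLAG in K27M-Tag against 5.15%, and chr6:42298682-42304674, with 0.81 and 31.2% of its length under FLAG in K27M-Tag and no FLAG peak in WT-Tag.

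The largest losses were smaller than the largest gains. At chr14:60996297-61002970, H3K4me3 covered 4400, 4254 and 4303 bp in the K27M-Tag cultures and 5954, 6095 and 6076 bp in the WT-Tag cultures, a log2 difference of -0.48 (SE 0.0326, limma adjusted p = 0.0026). FLAG covered 1016, 781 and 1420 bp of it in K27M-Tag and had no peak in WT-Tag, so FLAG was higher where H3K4me3 was narrower. The other 4 were chr6:28776657-28784323, chr15:64749935-64755121, chr11:108781029-108788767 and chr11:69414807-69420240, with log2 breadth differences of -0.39, -0.39, -0.38 and -0.36. The K27M-Tag mean of chr15:64749935-64755121 was 3554 bp, so it entered through the WT-Tag mean. FLAG covered 42.0%, 1.36%, 7.97% and 50.7% of these in K27M-Tag. It passed the test as higher in K27M-Tag in the first and the third of them.

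Higher FLAG coverage went with both directions of breadth. Of the 103 wider domains, 91 (88.3%) were also called higher for FLAG, and of the 12 narrower ones 10 were, beside 86.7% of all domains tested. The median log2 FLAG difference was 2.38 in the wider domains and 2.1 in the 793 not called for breadth. Of the domains called higher for FLAG, 11.7% were called wider. FLAG could also rise with next to no change in breadth. At chr17:71196489-71203912, the third in order of FLAG difference, FLAG covered 5705, 4745 and 5910 bp in K27M-Tag and 0, 287 and 0 bp in WT-Tag, while H3K4me3 covered 7124, 7360 and 7306 bp against 7073, 7139 and 6752 bp (log2 difference 0.06, limma adjusted p = 0.326).

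The other domains with the largest FLAG differences were chr11:21893247-21909324, chr11:23975214-23982939 and chr18:84255098-84262253. FLAG covered 36.7%, 49.6% and 61.6% of their length in K27M-Tag against 0.406%, 0% and 0.95% in WT-Tag. In the first of these the WT-Tag H3K4me3 lengths were spread widely, at 13248, 8205 and 4848 bp, against 16027, 15540 and 15964 bp in K27M-Tag (limma adjusted p = 0.0964). Of the 10 domains with no FLAG peak in any list, the 5 broadest were chr8:67206797-67213129, chr13:40823100-40829954, chr3:135099987-135105324, chr5:124196115-124200854 and chr6:71578621-71583694. At chr3:135099987-135105324, H3K4me3 was still wider in K27M-Tag, with 5189, 5269 and 5197 bp against 4632, 4698 and 4552 bp (log2 difference 0.17, SE 0.0317, limma adjusted p = 0.0272).

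Domains were called in fewer pieces in K27M-Tag. A domain held 1.43, 1.68 and 1.6 H3K4me3 peaks in the K27M-Tag cultures and 2.13, 1.83 and 1.98 in the WT-Tag cultures. The ranges did not overlap (difference -0.412). These counts are a description, since the rule used the same lists. By that rule 121 domains reached 4000 bp in the K27M-Tag mean alone and 6 in the WT-Tag mean alone. The number of pieces depends on how peaks are called: the difference was -0.0242 with peaks joined across 1000 bp, -0.112 with the 50% of peaks of highest score and -0.687 with a limit of 6000 bp. Narrower regions held 1.1 and 1.17 peaks. A single peak held the domain's H3K4me3 in 60.8% ± 5.27 of domains in K27M-Tag and 41.7% ± 7.99 in WT-Tag (SD, n = 3 each). Of the 3 length classes, the 33 domains of 10 kb or more differed most, with 2.06 ± 0.199 peaks against 3.76 ± 0.38. The bases left uncovered are the merged length less the covered length that the rule used, so they are given as a description. Per domain, 257 ± 61.8 bp lay beyond the outermost peaks in K27M-Tag and 500 ± 29.8 bp in WT-Tag. In gaps between peaks lay 104 ± 31.5 bp against 228 ± 38.3 bp (SD, n = 3 each). The uncovered bases were thus more numerous at the ends than in gaps in both genotypes.

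**Figure D5:**
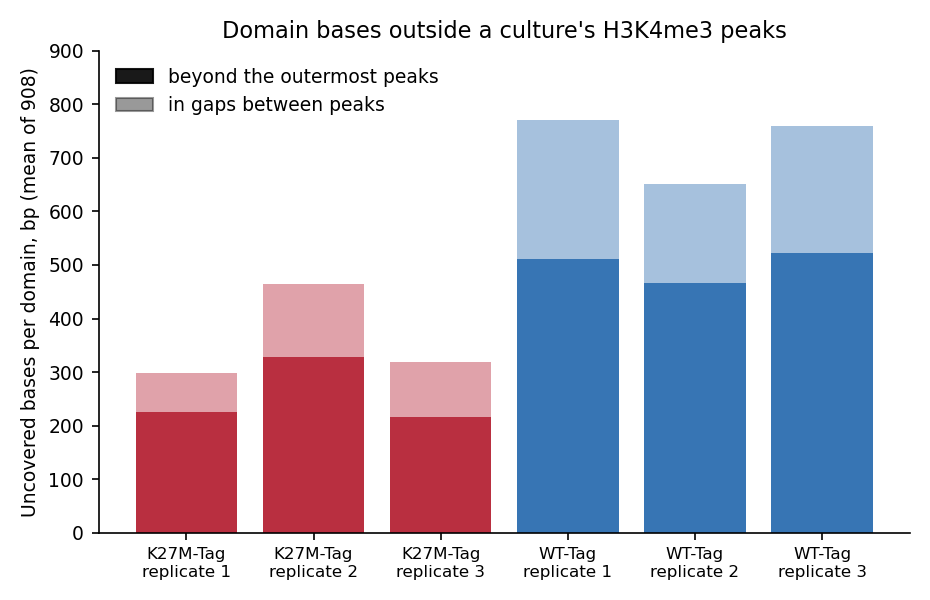
Bases of a domain that the H3K4me3 peaks of a culture left uncovered, in bp per domain (mean over domains), one stacked bar per culture, with the dark part for the ends beyond the outermost peaks and the light part for gaps between peaks. The ends of the K27M-Tag cultures run from 217 to 328 bp and those of the WT-Tag cultures from 466 to 522 bp, and gaps run from 73.7 to 137 bp against 185 to 260 bp.

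The height of the mark overlapped between the genotypes. The median summit pileup of the highest H3K4me3 peak was 80.5, 89.5 and 69.1 times the background coverage in K27M-Tag and 51.6, 72.8 and 65.1 times in WT-Tag, a ratio of means of 1.26 (exact permutation p = 0.2). The caller's local background moved with genotype. It exceeded 1.5 times the background coverage at the highest H3K4me3 peak of 13.5%, 16.4% and 16.5% of domains in the K27M-Tag cultures and of 46.5%, 46.7% and 48.3% in the WT-Tag cultures. At the highest FLAG peak these shares were 8.68%, 4.53% and 6.49% against 16.2%, 17.3% and 23.5%. In the 278 domains where no H3K4me3 list had such a raised local background, domains held 1.58 and 2.02 H3K4me3 peaks, and FLAG covered 38.2% and 7.38% of the length. There 26 domains (9.35%) were called wider and 6 (2.16%) narrower, against 7.51% and 0.549% of all shared regions. For FLAG 248 were higher, 89.9% of the 276 tested, beside 86.7% of all domains tested and 53.2% of all regions tested. The restriction used the H3K4me3 lists only, so it did not remove the raised local background of FLAG peaks.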

How the data were processed

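Peaks come from 12 lists, 1 per library, in narrowPeak columns. Per the submitters' processing notes, the tools included BWA 0.7.17-r1188, MACS2 2.2.7.1 and bedtools 2.29.2, and the builds mm9 and dm6. The role of each is not stated there. The deposited score ranks peaks. Fold enrichment was deposited as a ratio at each summit. The deposited −log10 p-values and −log10 q-values are the authors' values, with the lowest −log10 q between 2.0 and 2.05. The 2 composite inputs, 1 per genotype, were not analysed here.

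Regions were merged and measured in Python 3.11.15 (numpy 2.4.6, scipy 1.17.1). FLAG and H3K4me3 lengths were fitted over all shared regions with limma 3.58.1 in R 4.3.3 (trend, Benjamini-Hochberg, adjusted p threshold 0.05), after tests on simulated data. FLAG lengths had 200 bp added before taking log2. Summit pileup and local background were solved from fold and p, and matched within a relative error of 0.0001 for 100.0% of peaks in each list. Two-sided exact permutation tests compared 3 with 3 cultures, and exact sign-flip tests compared values within 6 cultures. Named domains were the 10 broadest, the 5 with the largest called gain and loss of breadth, the 5 with the largest FLAG gain and the 5 broadest without FLAG. The domains, classes and tests were chosen with earlier results of these data known. Alternatives were other limits, pseudocounts, flanks, list sizes and scores, centring, joined peaks, the replicate number as a block and leaving out each culture. The restriction to domains without raised local background was chosen after seeing the data.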

Additional observations from a re-analysis of the deposited data

How the results depend on the processing

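Over 117 alternatives to the summary results, 98 left a test on the same side of its threshold or a share of called domains near its main value. A further 9 moved such a share by more, 4 took a result past its threshold and 6 took it below. Many of the 98 compare 3 cultures with 3, where p cannot fall below 0.1 and could not cross 0.05, so this number does not measure steadiness. Among them, the difference in H3K4me3 peaks per domain went from -0.412 to -0.0242 with peaks joined across 1000 bp. The difference in flank FLAG went from 5.14 to 2.32 percentage points with equal list sizes. The share of domains called for H3K4me3 breadth, 12.7%, was 4.3% with the replicate block, 5.29% with each list centred, 8.29% with the 50% of peaks of highest score, 7.82% with peaks joined across 1000 bp, and 1.21% to 13.9% when each culture was left out. The share called for FLAG, 86.7%, was 38.2% with each list centred and 66.1% to 85.3% with a culture left out. In the centred FLAG fit the WT-Tag medians held no FLAG, as given above, so nothing is read from its share. The mean difference of -1.9 percentage points between middle and outer parts passed the unadjusted test at -1.77 with the 50% of peaks of highest score, -1.96 with equal list sizes, -4.54 with a limit of 6000 bp and -1.86 in domains without raised local background, and ran from -2.32 to -1.45 with a culture left out. The difference between broad domains and narrower regions ran from 5.71 to 8.0 percentage points with a culture left out, where 5 cultures cannot reach 0.05. Centring turned the direction of H3K4me3 breadth: the median log2 difference of the domains went from 0.07 to -0.07, and the calls from 103 wider and 12 narrower to 17 wider and 31 narrower. Deviations of cultures with the same replicate number had correlations of 0.07, 0.24 and 0.04 for H3K4me3 and 0, 0.06 and -0.01 for FLAG. With unlike numbers they ran from -0.19 to 0.09 for H3K4me3 and from -0.09 to 0.09 for FLAG. So few cultures cannot show whether the numbers mark a shared batch. With the block, 36 domains were wider (3.96%, against 1.92% of all shared regions) and 3 narrower (0.33%, against 0.224%). For FLAG, 779 were higher with the block, 86.7% of the domains tested, against 51.6% of all regions tested. The causes of these changes were not tested. Called lengths depend on depth and on the caller's background, which differed between the genotypes.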

Other observations

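Chromosome X was left out of the domains above. By the same rule it held 21 broad regions out of 677 regions in all 6 lists. FLAG covered 8.88%, 3.53% and 9.83% of their bases in the K27M-Tag cultures and 0.536%, 0.413% and 0.263% in the WT-Tag cultures. Both genotypes were thus below the share in the domains of any autosome, where the lowest were 32% and 5.58%. FLAG peaks were found in 13, 8 and 16 of the 21 regions in K27M-Tag and in 2, 2 and 1 in WT-Tag. Narrower regions of chromosome X were also low, at 4.93% ± 1.55 and 0.359% ± 0.215 (SD, n = 3 each). H3K4me3 covered 92.6% of the length of the 21 regions in K27M-Tag and 87.0% in WT-Tag, against 94.0% and 87.8% in the autosomal domains. In the 21 broad regions the male culture, WT-Tag replicate 3, had the lowest FLAG share, whereas in the 656 narrower regions of X the lowest was the female WT-Tag replicate 1, at 0.209% against 0.605% and 0.262% in WT-Tag replicates 2 and 3.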
